A study of Mus musculus with 8 samples.

Results

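The BCL2 family decides whether a cell keeps its mitochondria intact or releases their contents and dies by apoptosis. Pro-survival proteins such as BCL2, BCL-XL (gene Bcl2l1) and MCL1 hold the pore-forming effectors BAX and BAK in check. The BH3-only proteins BIM (Bcl2l11), BID, BAD, PUMA (Bbc3) and NOXA (Pmaip1) bind the pro-survival proteins, and some of them also activate the effectors. In T cells BIM is known for removing self-reactive thymocytes and for ending immune responses, and in regulatory T cells it is known to be opposed by MCL1 downstream of interleukin 2.

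The family is described here by 10 genes taken by name, 3 of them pro-survival (Bcl2, Bcl2l1, Mcl1) and 7 pro-death (Bax, Bak1, Bcl2l11, Bid, Bad, Bbc3, Pmaip1). The array's annotation named 23 probe sets for 9 of the 10 genes (17098 genes were named in all), out of 45141 probe sets in all, and a probe set for Bax was not named and is not analysed here. Of these 23, 22 were bright enough to be tested, meaning that they exceeded the 40th percentile of their array on at least 4 arrays. The exception was a dim Bid probe set, 1447873_PM_x_at, which lay between 3.09 and 4.02 in RaptorKO and between 3.15 and 3.48 in WT on the log2 scale.

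The study set 4 samples from CD4(cre)Raptor(fl/fl) mice, called RaptorKO here, against 4 from WT mice, all on a C57Bl/6J background, and asks how Raptor, the defining scaffold of the kinase complex mTORC1, shapes regulatory T cells. The cells were sorted as CD4+CD25+ from spleen and peripheral lymph nodes and lysed without treatment, so the gate is a surface phenotype and not a Foxp3 reporter. Cd4-driven Cre acts in developing thymocytes, so conventional T cells of these mice are targeted as well as regulatory T cells. The labels give no ages, do not say whether WT mice carried Cre or floxed alleles, and leave unsaid whether each sample is its own mouse. The p-values therefore rest on sample-to-sample spread that may be partly technical.

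The targeted gene gave a mixed check of the genotype labels. The brighter Rptor probe set lay between 6.47 and 6.95 in RaptorKO and between 6.75 and 7.03 in WT (change -0.23, adjusted p = 0.55). The dimmer one lay between 5.37 and 5.74 in RaptorKO and between 5.89 and 6.14 in WT, with no overlap, but did not pass the test (change -0.42, adjusted p = 0.12). Where these probe sets lie on Rptor, inside or outside the deleted part, is not known here. Foxp3 read 10.96 to 11.04 in RaptorKO and 10.79 to 10.96 in WT. The other markers fixed for regulatory T cells (Il2ra, Ctla4, Ikzf2, Cd4, Cd3e) were bright on all 8 arrays. Of the 6 markers, 3 had groups that did not overlap, against 8.82% of all genes by their brightest probe set. They were Ctla4 (change -0.32), Cd4 (-0.22) and Ikzf2 (0.21), none of them called. Xist and Kdm5d split each genotype alike, female in replicates 1 and 2 and male in replicates 3 and 4 (Xist 11.18 and 11.15, then 5.28 and 5.62, in RaptorKO 1 to 4).

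Bcl2l11 was the member that changed. RefSeq (GRCm38.p6) gave 2 start windows for it, and the more upstream one is printed because it holds the core forkhead motif that FOXO factors, known regulators of this gene, can bind. The 250 bases before that start, on the plus strand at chr2:128125788-128126037, are shown with the motif GTAAACA in capitals.
Bcl2l11: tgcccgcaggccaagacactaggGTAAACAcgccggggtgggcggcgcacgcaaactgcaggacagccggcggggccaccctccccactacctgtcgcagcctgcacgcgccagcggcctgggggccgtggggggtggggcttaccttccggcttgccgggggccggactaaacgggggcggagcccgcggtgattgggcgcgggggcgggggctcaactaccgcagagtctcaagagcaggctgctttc

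The same letters on the other strand, TGTTTAC, stand in 1 window of Bbc3, the gene of PUMA, at chr7:16310083-16310112 on the plus strand. They are shown within 30 bases because Bbc3 is the only other member with a match in its windows.
Bbc3: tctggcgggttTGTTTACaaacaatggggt

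The motif was searched on both strands as GTAAACA or TGTTTAC, in windows from 250 bases before to 50 after each start. Among the members, 9 genes had 15 windows in the table, and 2 genes had a match. Over all 27025 genes with a window, 4.05% had one. A match describes the letters of the window only.

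Bcl2l11 transcripts were lower in RaptorKO on all 5 of its probe sets, by 1.5-fold to 1.95-fold, and 2 of the 5 passed the test. The background was 1.11% of 27343 tested probe sets called in either direction, 304 in all, 0.669% called lower and 0.443% called higher (limma, Benjamini-Hochberg adjusted p under 0.05 over all tested probe sets). The brightest probe set, 1456005_PM_a_at, read 8.35, 8.49, 8.14 and 8.01 in RaptorKO 1 to 4 and 9.31, 9.16, 8.88 and 8.93 in WT 1 to 4. Every RaptorKO array lay below every WT array. The means were 8.25 ± 0.22 in RaptorKO and 9.07 ± 0.20 in WT (SD, n = 4 each), a fall of 0.83 on the log2 scale (SE 0.14, 95% interval -1.13 to -0.52, limma adjusted p = 0.0204).

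Probe set 1426334_PM_a_at gave the largest fall among the 5. It read 7.59, 7.11, 6.75 and 6.80 in RaptorKO and 8.21, 8.05, 7.78 and 8.06 in WT. The groups again did not overlap, and the fall was 0.97 (SE 0.18, limma adjusted p = 0.0317). The suffix _a marks a probe set that matches several transcripts of 1 gene, and BIM is known to be made in several splice forms, which these values cannot separate.

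The other 3 Bcl2l11 probe sets had negative changes that did not pass. Probe set 1435448_PM_at read 7.64, 7.99, 6.79 and 7.05 in RaptorKO and 8.53, 8.45, 8.14 and 7.89 in WT (change -0.88, SE 0.25, limma adjusted p = 0.141), with RaptorKO 2 just above WT 4. The dimmest, 1435449_PM_at, read 5.46, 5.15, 5.17 and 5.41 in RaptorKO and 6.19, 6.02, 5.86 and 5.47 in WT (change -0.59, SE 0.16, limma adjusted p = 0.121). Its groups touched without overlapping, at RaptorKO 1 and WT 4. Probe set 1456006_PM_at read 7.75, 6.65, 6.41 and 6.14 in RaptorKO and 7.34, 7.84, 7.27 and 7.15 in WT (change -0.66, SE 0.30, limma adjusted p = 0.42). There RaptorKO 1 stood with the WT arrays, while the other RaptorKO arrays lay below all of them. Without RaptorKO 1 the change was -0.999 (limma adjusted p = 0.043), but that array was singled out because it went against the fall. Without RaptorKO 4 the change was -0.463 (limma adjusted p = 0.623). This probe set was called under 1 of 20 alternatives. In all, 3 of the 5 probe sets had groups that did not overlap, against 8.07% of tested probe sets, or 4.68% counting those lower in RaptorKO.

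**Figure D1:**
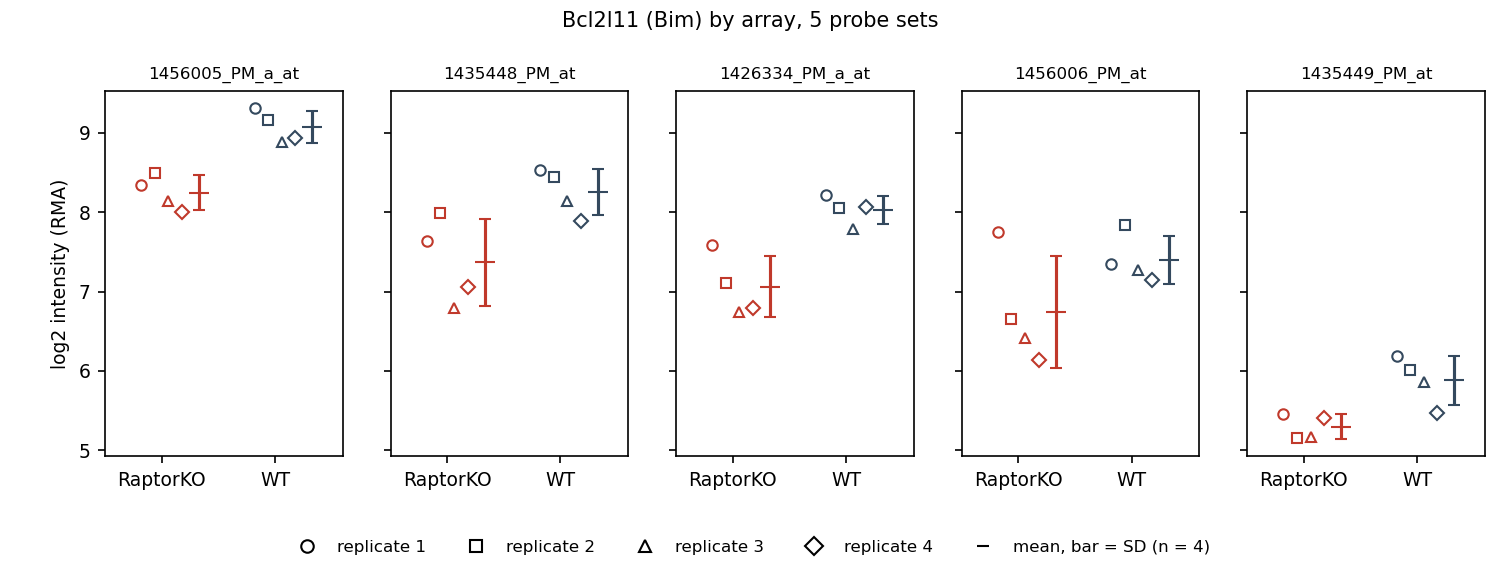
Log2 intensity (vertical axis) of the 5 Bcl2l11 probe sets in RaptorKO (red, left) and WT (dark, right), with 1 symbol per replicate number and the mean with its SD (n = 4) beside the points. The RaptorKO mean is lower in every panel, while in 1456006_PM_at RaptorKO 1 (7.75) sits among the WT arrays.

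The Bcl2l11 probe sets also followed each other across arrays, with Pearson correlations of 0.645 to 0.932 between pairs over the 8 arrays, which share their genotype difference. With each gene's probe sets averaged in place of single ones, Bcl2l11 fell by 0.78 (SE 0.16, limma adjusted p = 0.0279) and no other of the 9 measured members was called, where 2.64% of 10477 genes were called. The calls did not survive the loss of most single arrays. The call of 1456005_PM_a_at ended without RaptorKO 3, RaptorKO 4, WT 1, WT 2 or WT 4 (adjusted p 0.0513 to 0.0746), and that of 1426334_PM_a_at ended without RaptorKO 3, RaptorKO 4 or any WT array (adjusted p 0.0588 to 0.11), while the changes stayed between -1.14 and -0.75.

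Bcl2l11 had a negative change in both sets of replicates. Probe set 1456005_PM_a_at gave -0.82 in replicates 1 and 2, and -0.83 in replicates 3 and 4. Probe set 1426334_PM_a_at gave -0.78 and then -1.15 in the same order, a difference between the sets that did not pass (limma interaction, adjusted p = 0.589; 0.011% of all tested probe sets passed it). Neither probe set was called within 2 arrays against 2 (adjusted p 0.187 and 0.274 within replicates 1 and 2, 0.086 and 0.0567 within replicates 3 and 4). With a term for the 2 sets the 2 adjusted p-values were 0.00397 and 0.0104, and 1435448_PM_at was called too (adjusted p = 0.014).

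Markers of other cells were read beside these values, and 0 genes of the myeloid, CD8 and NK, and B cell lists were called. All 9 tested genes of 12 myeloid markers had a positive change, with 0 called and a mean log2 level of 6.13 to 6.82 in RaptorKO and 5.50 to 6.42 in WT; Cd14, Itgam and Adgre1 were below the filter. The smallest myeloid p-values were those of Lyz2 (change 0.61, limma adjusted p = 0.271) and Fcer1g (change 0.49, limma adjusted p = 0.36). The CD8 T cell marker Cd8a read 5.77 to 7.05 in RaptorKO and 5.95 to 8.48 in WT (change -1.03, limma adjusted p = 0.412). Cd8b1, with the smallest p of the CD8 and NK list, differed by -0.77 (limma adjusted p = 0.152). The CD8 and NK markers as a list had 5 tested genes of 7, 0 called, with a mean level of 6.00 to 6.79 in RaptorKO and 6.03 to 7.14 in WT. B cell markers had 4 tested genes of 8, 0 called, with a mean level of 5.90 to 6.53 in RaptorKO and 5.43 to 6.68 in WT. Their smallest p-values were those of Pax5 (change 0.44, limma adjusted p = 0.601) and Cd79a (change 0.37, limma adjusted p = 0.732). Of 4 tested conventional CD4 markers 1 was called, where 1.31% of all genes were called by their brightest probe set. It was Ccr9, higher in RaptorKO (change 0.74, limma adjusted p = 0.0245), while Cd40lg (-0.32, no overlap), Igfbp4 (-0.33) and Satb1 (-0.037) had negative changes that did not pass. The part of these cells in the results was not tested, and in sorted bulk samples fewer cells of a type and less RNA per cell cannot be told apart.

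The pro-survival members showed no call. Bcl2, the founding member, was bright, with nearly equal means in both groups. Probe set 1422938_PM_at read 10.99, 11.21, 11.11 and 11.08 in RaptorKO and 11.35, 11.23, 10.86 and 10.96 in WT. The change was -0.0026 (95% interval -0.28 to 0.28, limma adjusted p = 0.998), so the interval leaves room for a difference of up to 0.28 either way. The dimmer 1457687_PM_at read 9.42, 9.63, 9.37 and 9.23 in RaptorKO and 9.53, 9.44, 9.35 and 9.40 in WT (change -0.015, 95% interval -0.26 to 0.23, limma adjusted p = 0.981). Over all arrays, both probe sets had a positive change after quantile normalization (0.0314 and 0.0365).

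Mcl1, whose short-lived protein regulatory T cells are known to need, had a slightly negative change on all 3 probe sets, none of which passed. The brightest, 1448503_PM_at, read 10.65, 10.70, 10.65 and 10.53 in RaptorKO and 10.83, 10.83, 10.65 and 10.76 in WT (change -0.14, SE 0.096, limma adjusted p = 0.678). Probe set 1416881_PM_at read 9.96, 10.23, 10.05 and 9.88 in RaptorKO and 10.42, 10.19, 10.37 and 10.30 in WT (change -0.29, SE 0.11, limma adjusted p = 0.307). Only RaptorKO 2 reached the WT range there. Probe set 1416880_PM_at had a change of -0.15 (limma adjusted p = 0.787), and on it replicates 3 and 4 lay below replicates 1 and 2 in both genotypes.

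Bcl2l1, which encodes BCL-XL, had a positive change on all 4 probe sets, none of which passed. The brightest by mean, 1420888_PM_at, read 7.74, 7.78, 7.44 and 7.59 in RaptorKO and 7.49, 7.43, 7.36 and 7.64 in WT (change 0.15, SE 0.11, limma adjusted p = 0.691). Probe set 1420887_PM_a_at read 7.21, 7.15, 6.26 and 6.49 in RaptorKO and 6.60, 6.32, 6.21 and 6.41 in WT (change 0.40, SE 0.21, limma adjusted p = 0.509). RaptorKO 1 and 2 stood above all other arrays on it, whereas RaptorKO 3 and 4 lay in the WT range. It gave 0.72 in replicates 1 and 2, and 0.067 in replicates 3 and 4, and the difference of -0.66 had the smallest interaction p of any member (0.0167) but did not pass over all probe sets (limma interaction, adjusted p = 0.396). The other probe sets, 1426191_PM_a_at and 1426050_PM_at, differed by 0.18 and 0.11, and RaptorKO 4 was the highest array on 1426191_PM_a_at (8.01). Without RaptorKO 4 the first was 0.043, and without WT 2 the second was 0.0328.

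Of the effectors BAX and BAK, only BAK (Bak1) was measured. Its brighter probe set, 1425716_PM_s_at, read 9.44, 9.61, 9.25 and 9.38 in RaptorKO and 9.64, 9.78, 9.69 and 9.46 in WT (change -0.22, SE 0.11, limma adjusted p = 0.497). The suffix _s marks a probe set that also matches transcripts of another gene. The second, 1418991_PM_at, read 7.82, 7.70, 7.60 and 7.88 in RaptorKO and 7.67, 7.74, 7.90 and 7.84 in WT, with a change of -0.038 (limma adjusted p = 0.946).

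None of the remaining BH3-only probe sets was called. Pmaip1, the gene of NOXA, which neutralizes MCL1, had the largest positive change among the 22 tested probe sets of the 10 genes, without passing the test. It read 5.05, 6.42, 5.67 and 5.99 in RaptorKO and 4.60, 4.97, 5.44 and 5.09 in WT. The probe set was dim. WT 1 lay below the 40th percentile of its array, 3 WT arrays lay above theirs, and the 60th percentile filter removed the probe set. The means were 5.78 ± 0.58 in RaptorKO and 5.02 ± 0.34 in WT (SD, n = 4 each), a difference of 0.76 (SE 0.26, 95% interval 0.18 to 1.34, limma adjusted p = 0.256). RaptorKO 1 lay within the WT range and the other RaptorKO arrays above it. The difference was 0.55 without RaptorKO 2, and its lowest adjusted p without a single array was 0.0836, without RaptorKO 1.

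Bbc3, which encodes PUMA and carries the forkhead letters shown above, read 6.37, 6.25, 6.35 and 6.31 in RaptorKO and 6.33, 6.80, 6.55 and 6.36 in WT (change -0.19, SE 0.12, 95% interval -0.45 to 0.07, limma adjusted p = 0.61). Its RaptorKO values were tightly grouped and overlapped the lower WT arrays, and without WT 2 the change was -0.0963.

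Bad, the BH3-only protein held inactive by phosphorylation and binding to 14-3-3 proteins, read 7.24, 7.90, 7.65 and 7.52 in RaptorKO and 7.68, 7.96, 7.84 and 8.12 in WT on 1416582_PM_a_at (change -0.32, SE 0.15, limma adjusted p = 0.446). On 1416583_PM_at the change was -0.19 (limma adjusted p = 0.722), and RaptorKO 2 was the highest of the 8 arrays at 7.11. Bid, which caspase-8 cleaves to link death receptors to mitochondria, read 6.94, 6.73, 7.02 and 6.45 in RaptorKO and 6.52, 6.71, 6.79 and 6.89 in WT on 1417045_PM_at (change 0.059, limma adjusted p = 0.934). Its second tested probe set, 1448560_PM_at, differed by -0.13 (limma adjusted p = 0.869).

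**Figure D2:**
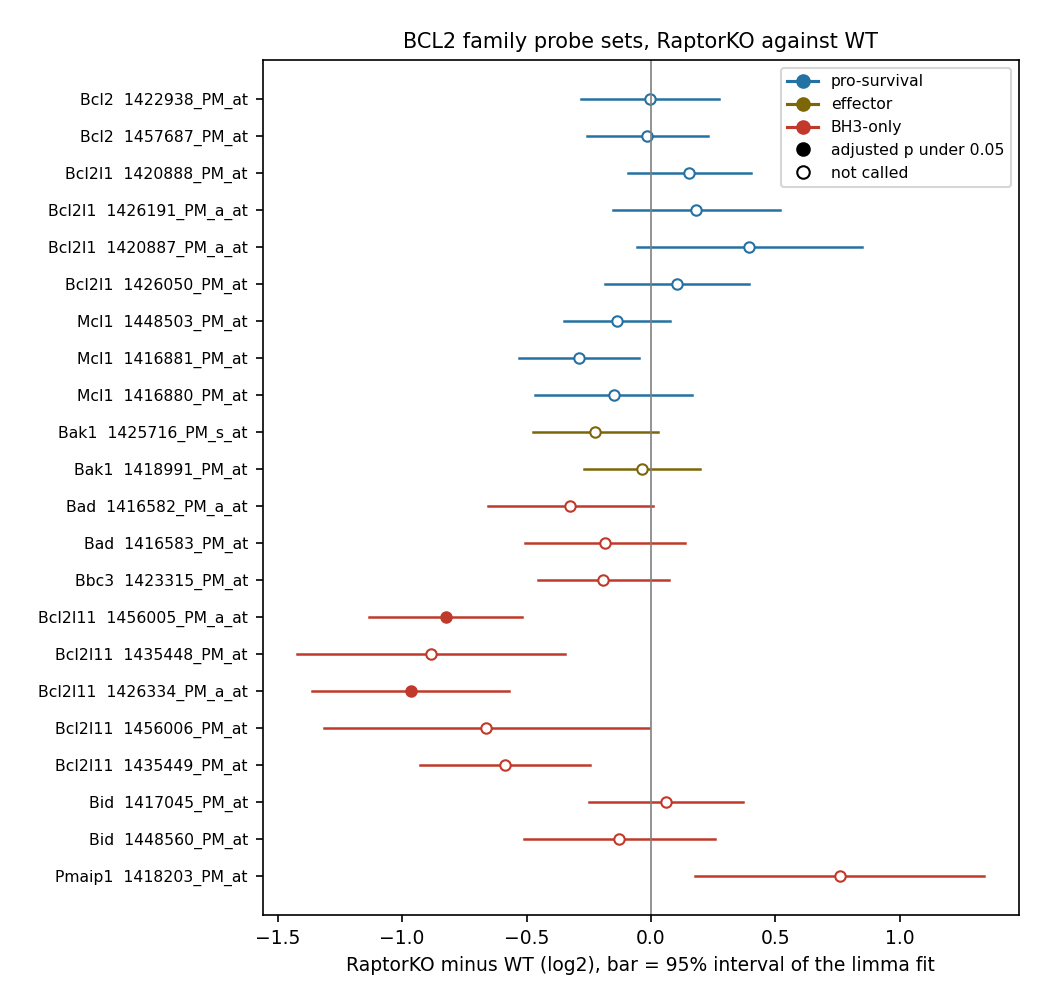
Change of each of the 22 tested BCL2 family probe sets, RaptorKO minus WT on the log2 scale (horizontal axis), with the 95% interval of the limma fit; colours give the role and filled points passed the adjusted p threshold. Only 2 Bcl2l11 probe sets are filled, and 1 interval outside Bcl2l11 lies wholly above 0 (Pmaip1) and 1 wholly below (Mcl1 1416881_PM_at), both uncalled.

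Set side by side, the pro-survival probe sets had a median change of -0.0026 (9 probe sets, 4 positive and 5 negative, 0 called), and the pro-death probe sets one of -0.23 (13 probe sets, 2 positive and 11 negative, 2 called lower). Over all tested probe sets the median was -0.012. Without the 5 Bcl2l11 probe sets, the remaining 8 pro-death ones had a median of -0.16, from -0.32 to 0.76, with 0 called. At an unadjusted p under 0.05 there were 7 of the 22, made up of all 5 of Bcl2l11 and 1 each of Mcl1 and Pmaip1, against 11.6% of all tested probe sets.

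Averaged over its probe sets, Bcl2l11 lay 0.37, 0.65, 1.08 and 1.04 below the WT mean in RaptorKO 1 to 4 on the log2 scale, while the WT arrays themselves ranged from -0.23 to 0.19 around it. RaptorKO 3 and 4 lay lowest, and WT 3 and 4 lay below WT 1 and 2. The 3 pro-survival genes together lay between -0.12 and 0.16 in RaptorKO and between -0.098 and 0.12 in WT. The 4 other BH3-only genes lay between -0.21 and 0.35 in RaptorKO and between -0.20 and 0.094 in WT, with RaptorKO 2 the highest.

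**Figure D3:**
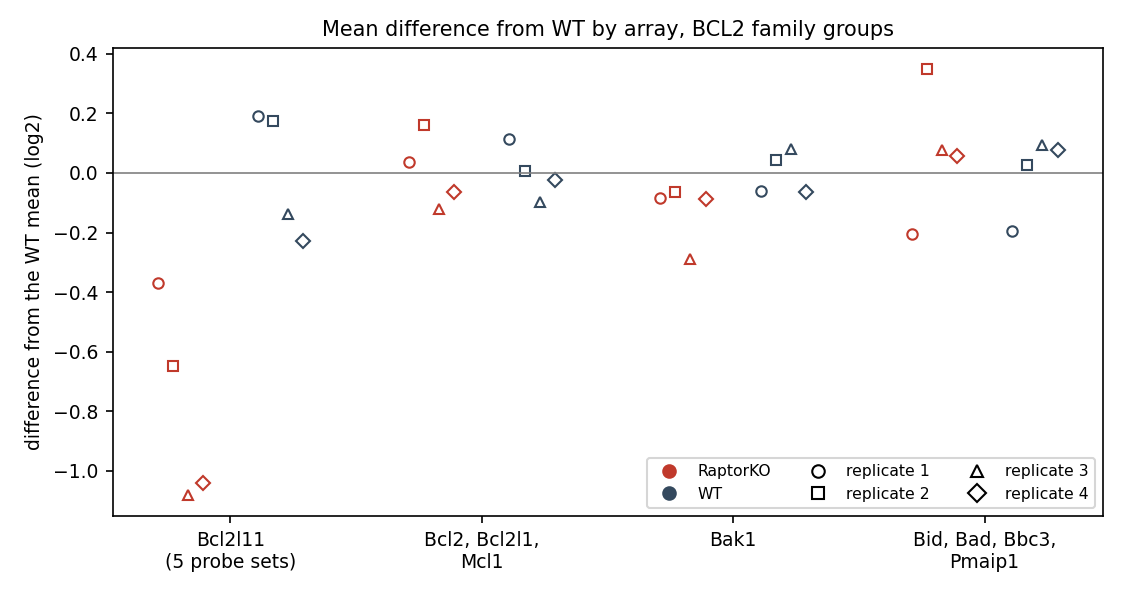
Mean difference from the WT mean of each probe set, on the log2 scale (vertical axis), for Bcl2l11 and for 3 groups of other BCL2 family genes; each symbol is 1 array, RaptorKO in red on the left of each group and WT in dark on the right. The 4 RaptorKO arrays lie from -0.37 to -1.08 for Bcl2l11 and between -0.29 and 0.35 for the other groups.

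Further family members were described by the brightest probe set of each gene, a level at which 1.31% of 11413 genes were called in the same fit. Of 15 listed genes 11 were tested, 10 of them with a negative change that did not pass and 1, Bcl2l15, past the threshold. Those 10 changes ran from -0.26 (Bik) to -0.00045 (Bmf). Over all 11413 genes, 5978 had a negative change. Bcl2l15, a BH3-containing family member, read 5.60, 6.21, 5.45 and 5.64 in RaptorKO and 4.59, 4.45, 4.002 and 4.55 in WT. All 4 WT values lay below the 40th percentile of their array, so the probe set entered the test only through the arrays where it is high. It had to differ there, and its values are given as a description, with no fold or p.

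The machinery downstream of the family showed no call. Among 14 tested genes of the mitochondrial pathway and caspases, 9 were positive and 5 negative, with a median of 0.042. The 2 smallest p-values were those of Dffb, the nuclease that cuts DNA in apoptosis (change 0.47, limma adjusted p = 0.315), and Apaf1, the scaffold of the apoptosome (change -0.38, limma adjusted p = 0.37). Inhibitors of apoptosis had 0 called of 5 (median 0.076; Birc3 0.18, Birc5 0.15), and the death receptor pathway 0 of 7 (median 0.0071; Tnfrsf10b -0.21, Tnfrsf1a -0.12). Protein partners and modifiers of the family had 0 called of 12 (median 0.0045), with Dynll1, a dynein light chain that binds BIM, at -0.32 (limma adjusted p = 0.358) and the 14-3-3 gene Ywhaq at -0.27 (limma adjusted p = 0.404).

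Among 11 tested transcriptional regulators, 1 was called, 6 were positive and 5 negative, with a median of 0.135. The groups did not overlap for 4 of them, against 8.82% of all genes. Apart from the called one these were Myc (0.37), Ddit3 (0.28) and Stat3 (-0.26). Myb, a transcription factor known to sustain Bcl2 in lymphoid cells, read 6.98, 7.43, 6.87 and 7.43 in RaptorKO and 6.29, 5.97, 6.45 and 6.20 in WT (change 0.95, SE 0.16, limma adjusted p = 0.0178), with no overlap. Its call ended without RaptorKO 4 or any of WT 1, WT 2 and WT 4 (highest adjusted p = 0.0706). It also ended with the replicate number as a block (limma adjusted p = 0.0558). Foxo3 and Foxo1, named for the forkhead motif and outside the rule for named genes, were not called. Foxo3, a factor known to drive Bcl2l11, differed by 0.18 on its brightest probe set (limma adjusted p = 0.654), and Foxo1 by -0.17 (limma adjusted p = 0.606).

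Of 11 tested p53 target genes, 1 was called, 8 were negative and 5 had groups that did not overlap, with a median of -0.27. Over all genes 8.82% did not overlap at this level. The 3 positive genes, none of them called, were Cdkn1a (0.062), Mdm2 (0.056) and Phlda3 (0.26). No probe set was named for Trp53, the gene of p53 itself. Btg2, an antiproliferative factor, read 8.55, 8.72, 8.38 and 8.59 in RaptorKO and 9.11, 9.04, 9.08 and 9.16 in WT (change -0.54, SE 0.10, limma adjusted p = 0.0344). Its call held only with RaptorKO 2 as the omitted array (highest adjusted p = 0.123 otherwise). It was also lost with the replicate number as a block (limma adjusted p = 0.107) and with centring on the array median (limma adjusted p = 0.0532). The second Btg2 probe set, 1448272_PM_at, was also called (-0.73, limma adjusted p = 0.0191). That call ended without RaptorKO 1, RaptorKO 4, WT 1, WT 3 or WT 4 (adjusted p 0.0508 to 0.0781) and with the replicate number as a block (adjusted p = 0.0626). Chosen after their values were seen, a dimmer probe set of the stress-induced gene Sesn2 fell by 1.23 (1425139_PM_at, limma adjusted p = 0.00623) and a second probe set of the autophagy and stress gene Trp53inp1 by 0.76 (1416927_PM_at, limma adjusted p = 0.00623). Their brightest probe sets differed by -0.44 (limma adjusted p = 0.189) and -0.57 (limma adjusted p = 0.0511).

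**Figure D4:**
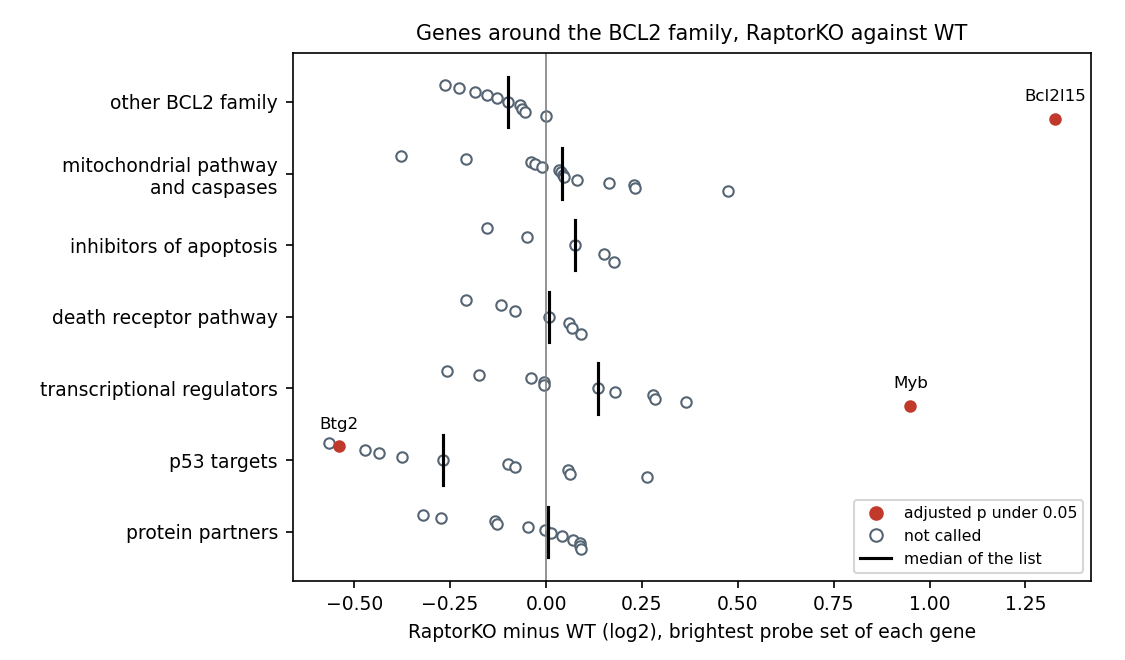
Change of each gene's brightest probe set, RaptorKO minus WT on the log2 scale (horizontal axis), in 7 lists of genes around the BCL2 family; filled red points passed the adjusted p threshold and black bars mark list medians. Myb (0.95), Btg2 (-0.54) and Bcl2l15 are filled; Bcl2l15 was tested only because its RaptorKO arrays were bright enough, and its point supports no size of change.

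The profiles most like that of Bcl2l11 were sought among 18578 tested probe sets of other named genes, by Pearson correlation with 1456005_PM_a_at over the 8 arrays. The 5 highest were 2 probe sets of the kinase gene Hipk2 (0.986 and 0.981), the ubiquitin-conjugating enzyme gene Ube2h (0.983), Vps4a, an ATPase of endosomal sorting (0.982), and the interferon-inducible GTPase gene Ifi47 (0.982). The changes of these 5 probe sets ran from -0.93 (Hipk2) to -0.35 (Vps4a). They were picked by likeness to a probe set called lower in RaptorKO, so a negative change was favoured in advance and no p is given. These correlations include the genotype difference that the arrays share and are given as a description.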

How the data were processed

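Single-channel arrays of total RNA were analysed, 1 per sample. The authors deposited log2 intensities per probe set which the submitters' processing notes credit to RMA without naming a release. RMA as usually run evens out total signal between arrays, and array medians lay between 5.21 and 5.29. The number of arrays limits the precision. Probe sets were named by the platform annotation, updated through Entrez identifiers to RefSeq symbols (28689 of 28898 single-gene probe sets matched; 551 listed several genes and 15692 none). All 27343 non-control probe sets above the 40th percentile on at least 4 arrays were fitted singly with limma 3.58.1 in R 4.3.3 (lmFit, eBayes, no covariates), and adjusted p-values are over all of them. Changes are RaptorKO minus WT, with standard errors of the fit. The members and lists were chosen with earlier results of these data known. Named genes were all members and, in each other list apart from the sex-linked one, called genes or the 2 smallest p-values. Other marker genes, Foxo1, Foxo3, further p53 targets and regulators, and second probe sets were named outside this rule, after their values were seen. Promoter windows are those of RefSeq (GRCm38.p6). The fitting was tested on simulated data. The same-numbered samples were checked for pairing: correlations of their deviations ran from -0.155 to 0.157, so the numbers were not used as pairs. Alternatives covered the filter, scaling, variance model, array weights, probe set choice, replicate sets and each array left out.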

Additional observations from a re-analysis of the deposited data

How the results depend on the processing

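Bcl2l11 had a negative change in all 100 values from 22 alternatives on its 5 probe sets, and no called value reversed. The filters, variance models, replicate block, replicate-set term and choice of the brightest probe set left each change as it was. The sign could not turn there, and the other alternatives reused the same 8 arrays. The 304 changed probe sets became 200 with a replicate block, 598 with an intensity trend, 7 within replicates 1 and 2 and 45 within replicates 3 and 4, and 103 (without WT 4) to 336 (without RaptorKO 2) without single arrays. The 2 called family probe sets became 0 within either replicate set, and 0 to 3 without single arrays. They became 0 without RaptorKO 3, RaptorKO 4, WT 1, WT 2 or WT 4. With the brightest probe set or the mean of each gene, 1 was called, of Bcl2l11. There each gene has 1 value per array, so Bcl2l11 could give only 1 call (brightest probe set, limma adjusted p = 0.00945). With the replicate block 3 were called, all of Bcl2l11 (limma adjusted p = 0.046 for 1435448_PM_at). Pairing by number was not shown, as 1 of 8 arrays correlated best with its own number. With 4 arrays per group this check cannot exclude pairing. The pro-death median was -0.31 within replicates 3 and 4 and -0.33 to -0.20 without single arrays; the pro-survival median was -0.042 to 0.083. An uncalled sign turned for 5 probe sets, of Bcl2, Bak1 and Bid. The cause of these shifts was not tested. Over all probe sets 3 passed the interaction with replicate set, none of them a member (lowest adjusted p = 0.396).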
